A study of Mus musculus with 9 samples.

Results

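The vacuolar ATPase (V-ATPase) is a rotary pump of many subunits that uses ATP to push protons across membranes. Its soluble V1 sector splits ATP and its membrane-bound V0 sector carries the protons. In every cell it acidifies lysosomes and endosomes, and in the osteoclast, the bone-resorbing cell of the macrophage lineage, it is placed in the ruffled border and acidifies the pit beneath the cell so that bone mineral dissolves. Chloride, bicarbonate and carbonic anhydrase partners supply and balance the protons, and loss of several of these genes causes osteopetrosis, in which bone is not resorbed.

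The genes described here are 31 V-ATPase and acid secretion genes, found by matching a list of gene symbols to the symbols of the deposited count table, out of 49315 genes. They comprise 10 V0 genes, 11 V1 genes, 2 accessory subunit genes and 8 chloride, trafficking, bicarbonate and carbonic anhydrase partners. Of them, 29 passed the filter on low counts, among 15963 genes that did. Expression was measured by total RNA sequencing after removal of ribosomal RNA, in RAW 264.7, a macrophage line of mouse that turns osteoclast-like under RANKL, the main cytokine of osteoclast formation. There were 3 groups of 3 libraries. The pamidronate + GGOH group received 140 µM pamidronate with 5.25 µM geranylgeraniol (GGOH), the pamidronate group received 140 µM pamidronate, and the control group received neither. Pamidronate is a nitrogen-containing bisphosphonate that blocks farnesyl diphosphate synthase, so that cells run short of the isoprenoids with which small GTPases are fixed to membranes. GGOH can be turned by cells into such an isoprenoid. The growth notes give all cells 24 h of growth and then RANKL at 20 ng/ml, with pamidronate added after 48 h in total and cells collected 24 h later. The control samples are labelled as untreated, which was read here as RANKL without pamidronate or GGOH. An unexplained percentage stands in the names of the libraries with GGOH. The design text names the restoration of function by GGOH as the aim of that group. Separate culture origin is not given for the samples of the drug groups, so p-values measure the spread between these samples, which may be technical.

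Library totals ran from 14356069 to 18957968 counts. On the first principal component, pamidronate + GGOH replicate 3 lay nearer the controls than the rest of its group, at -11.5, against 29.8 and 18.9 for the other libraries of that group, 69.6 to 84.6 for pamidronate and -93.3 to -79.3 for control. Mitochondrial transcripts took 5.43% to 6.31% of counts with pamidronate + GGOH, 3.71% to 5.19% with pamidronate and 10.4% to 10.8% in controls. The summed level of 9 macrophage markers was 6102 to 8901 CPM (counts scaled to library size with TMM composition factors) with pamidronate + GGOH, 4215 to 5968 CPM with pamidronate and 14281 to 19124 CPM in controls. Lyz2 made up most of these sums, averaging 5895, 4303 and 13708 CPM in those groups. All 9 were called lower with pamidronate than in controls. With GGOH against pamidronate 7 of the 9 were called higher, Cd68 was called lower and Lyz2 was not called. The summed level of 10 osteoclast markers was 247 to 335 CPM with pamidronate + GGOH, 193 to 218 CPM with pamidronate and 293 to 321 CPM in controls. Of these 10, Calcr, Oscar and Ocstamp did not pass the filter, and Calcr, the calcitonin receptor, was at 0 in every pamidronate and control library. Ctsk, the collagen-degrading protease of osteoclasts, averaged 10.8 CPM with pamidronate + GGOH, 32.9 CPM with pamidronate and 4.70 CPM in controls. Acp5, the osteoclast acid phosphatase, averaged 3.42 CPM with pamidronate + GGOH, 7.36 CPM with pamidronate and 5.27 CPM in controls. Itgb3, the osteoclast integrin subunit, averaged 11.7 CPM with pamidronate + GGOH, 8.04 CPM with pamidronate and 1.53 CPM in controls, and Dcstamp, needed for osteoclast fusion, averaged 4.96 CPM with pamidronate + GGOH, 5.65 CPM with pamidronate and 2.56 CPM in controls. Other markers of the list were well detected: Nfatc1, the factor that directs osteoclast formation, averaged 81.9 CPM with pamidronate + GGOH, 84.8 CPM with pamidronate and 134 CPM in controls, Tnfrsf11a, the receptor for RANKL, averaged 76.5 CPM with pamidronate + GGOH, 51.5 CPM with pamidronate and 129.7 CPM in controls, and Mmp9, a matrix protease, averaged 86.8 CPM with pamidronate + GGOH, 17.7 CPM with pamidronate and 27.1 CPM in controls. The 7 tested markers did not share a direction. With pamidronate against control Ctsk, Itgb3 and Dcstamp were called higher and Nfatc1 and Tnfrsf11a lower; with GGOH against pamidronate 3 were called higher and 2 lower, and with GGOH against control 4 higher and 2 lower. The part of the mitochondrial share and of the macrophage markers in the results was not tested. In bulk RNA, fewer cells of a type and less of an RNA per cell cannot be told apart. T cell, B cell, epithelial and kidney intercalated cell markers each summed to at most 1.30 CPM in any library. The osteoblast and fibroblast list summed to 29.2 to 31.3 CPM with pamidronate + GGOH, 35.2 to 42.8 CPM with pamidronate and 22.5 to 33.4 CPM in controls.

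Pamidronate against control asks how the bisphosphonate changed the acid secretion genes. They did not move as a block. The osteoclast d subunit gene Atp6v0d2 and the chloride-proton exchanger gene Clcn7 were several-fold higher with pamidronate, with log2 fold changes of 2.22 and 1.89, and several V1 genes rose with them. Car2, the carbonic anhydrase that supplies protons, fell by 2.71 on the log2 scale, and both accessory subunit genes and Snx10, a sorting nexin needed for osteoclast resorption, fell to about the same extent as each other, by 0.99 to 1.08. By the quasi-likelihood test of edgeR, adjusted by Benjamini-Hochberg over all genes tested, which also gives every adjusted p below, 12 of the 29 genes were called higher and 10 lower at an adjusted p under 0.05. Among all genes tested, 36.2% were called higher and 32.9% lower, so the share called higher here is 41.4% and the share called lower 34.5%, near the background. The libraries of the groups did not overlap in 23 of the 29 genes (79.3%), against 73.4% of all genes. The median log2 fold change of the 29 genes was 0.11, against 0.08 over all genes. Of the 29, Atp6v1c2 reached the limit of the filter only in the pamidronate libraries. Without it 11 of 28 were called higher (39.3%) and 10 lower (35.7%), 22 had no overlap (78.6%) and the median was 0.11. By role, 4 of 9 V0 genes were called higher and 3 lower, and 6 of 10 V1 genes higher and 1 lower. Atp6v1c2 is among these 6 V1 genes, and its call is not read as a result. Both accessory genes were called lower, and 2 of 8 partners higher and 4 lower. Upper-quartile factors, which moved the median of all genes by 0.19, gave 18 of the 29 higher and 8 lower.

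Pamidronate + GGOH against pamidronate asks what GGOH changed in the presence of the drug. Car2 was 4.70-fold higher with GGOH, and Atp6v0a1, Snx10, Atp6v0d1, Clcn5 and Atp6ap2 also rose, with log2 fold changes of 0.82, 0.61, 0.52, 0.50 and 0.35. Atp6v0d2 fell by 1.11 on the log2 scale, Atp6v1h by 0.86 and Clcn7 by 0.80. In all, 6 of the 29 genes were called higher and 10 lower, which is 20.7% and 34.5%, against 25.2% and 23.6% of all genes. The libraries did not overlap in 23 genes (79.3%), against 59.6% of all genes. The median log2 fold change was -0.13, against 0.00 over all genes. Without Atp6v1c2, 6 of 28 were called higher (21.4%) and 10 lower (35.7%), 22 had no overlap (78.6%) and the median was -0.13. By role, 2 of 9 V0 genes were called higher and 4 lower, 4 of 10 V1 genes lower, 1 of 2 accessory genes higher, and 3 of 8 partners higher and 2 lower. Scaling by library totals alone moved the median of all genes by 0.17 on the log2 scale and the share of higher calls among all called genes to 67.9%, against 51.7% in the fit reported here.

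Pamidronate + GGOH against control shows which of these genes still differed from controls in the presence of both compounds. Atp6v0d2 and Clcn7 were higher, with log2 fold changes of 1.11 and 1.09, and Atp6v1g2, Atp6v1h, Atp6v1d, Atp6v0c and Atp6v0e were higher by 0.33 to 0.90. Atp6ap1, Atp6ap2, Atp6v0e2, Atp6v1f and Snx10 were lower, by 0.47 to 0.82. In all, 9 of the 29 genes were called higher and 8 lower, which is 31.03% and 27.59%, against 26.3% and 26% of all genes. The libraries did not overlap in 18 genes (62.1%), against 58.2% of all genes. The median was -0.01, against 0.02 over all genes. Without Atp6v1c2, 8 of 28 were called higher and 8 lower, 28.6% each, 17 had no overlap (60.7%) and the median was -0.04. By role, 3 of 9 V0 genes were called higher and 1 lower, and 4 of 10 V1 genes higher, Atp6v1c2 among them, and 3 lower. Both accessory genes were called lower, and 2 of 8 partners higher and 2 lower. The split of calls depended on scaling: upper-quartile factors and library totals alone, which moved the median of all genes by 0.20 and 0.23, each gave 14 of the 29 genes higher and 5 lower, with 69.2% and 72.6% of all calls higher, against 50.3% in the fit reported here. A stricter filter on low counts, which moved it by 0.15, gave 5 lower. The comparisons with pamidronate and with control share libraries, so their values are given side by side without a test of their likeness.

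**Figure D1:**
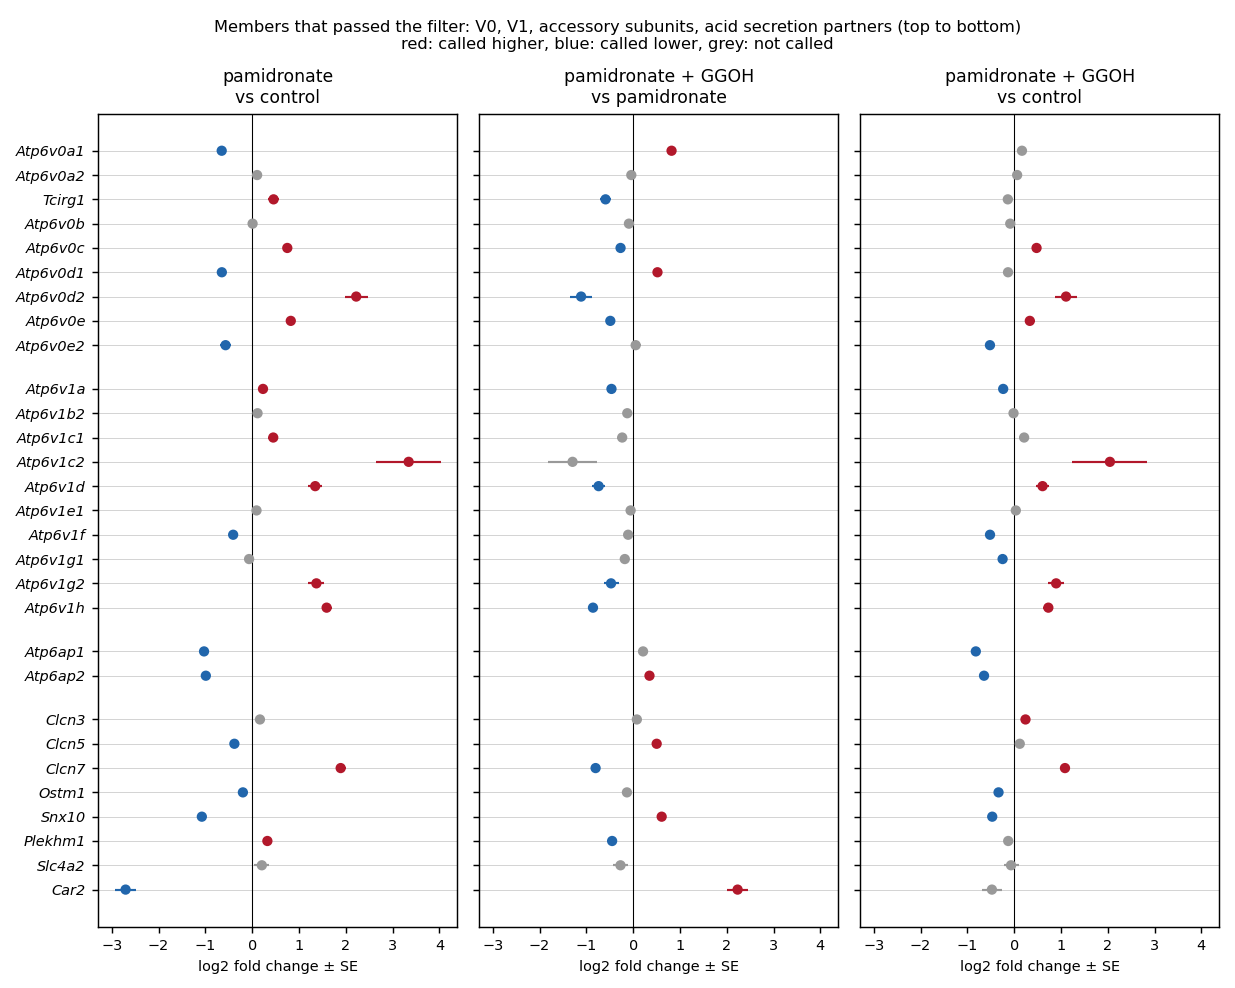
Log2 fold change (x axis, dots) with its standard error (bars) of the 29 genes that passed the filter, by role from top to bottom, in pamidronate over control, pamidronate + GGOH over pamidronate and pamidronate + GGOH over control. Atp6v0d2, Clcn7, Atp6v1h and Atp6v1d lie to the right of 0 in the left and right panels and to the left in the middle one, and Car2 lies at -2.71, 2.23 and -0.48; the wide bars of Atp6v1c2 belong to a gene with 3 counts in the control group, whose fitted fold depends on the prior count.

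Among the V0 genes, the d subunit, which joins the proton-carrying ring to the V1 stalk, changed most. Atp6v0d2 (chromosome 4, 19876841 to 19922605, minus strand, coordinates here and below on GRCm38) encodes the isoform that rises during osteoclast formation and, in mouse, takes part in cell fusion. It had 152, 141 and 84.3 CPM in the pamidronate + GGOH libraries, 282, 329 and 204 CPM in the pamidronate libraries and 56.4, 63.0 and 55.3 CPM in the control libraries. Every pamidronate library lay above every pamidronate + GGOH library, and these lay above every control library, with pamidronate + GGOH replicate 3 the lowest of its group. The log2 fold change was 2.22 ± 0.25 (SE, adjusted p = 5.94e-05) for pamidronate over control, -1.11 ± 0.24 (SE, adjusted p = 0.00508) for pamidronate + GGOH over pamidronate and 1.11 ± 0.24 (SE, adjusted p = 0.00543) for pamidronate + GGOH over control. Without pamidronate + GGOH replicate 3 the last 2 values were -0.85 and 1.31, both still called. The widely expressed isoform gene Atp6v0d1 (chromosome 8, 105524465 to 105566047, minus strand) had 70.4, 73.3 and 77.3 CPM in the pamidronate + GGOH libraries, 55.4, 49.7 and 49.1 CPM in the pamidronate libraries and 79.4, 79.8 and 82.8 CPM in the control libraries. Its pamidronate libraries were the lowest and its pamidronate + GGOH libraries lay just under the controls, the opposite order to Atp6v0d2. It fell with pamidronate, with a log2 change of -0.65 ± 0.08 (SE, adjusted p = 6.16e-06), and was higher with GGOH than without by 0.52 ± 0.08 (SE, adjusted p = 0.000131). Against control the value with GGOH was -0.13 ± 0.08 (SE, adjusted p = 0.187), not called, and turned positive under upper-quartile factors, library totals alone and the stricter filter.

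The a subunits anchor V1 to the membrane and send the pump to different compartments. Tcirg1 (chromosome 19, 3896050 to 3907133, minus strand) encodes the isoform of the osteoclast ruffled border, and its loss in mouse or human causes osteopetrosis. It had 308, 319 and 396 CPM in the pamidronate + GGOH libraries, 521, 550.0 and 469 CPM in the pamidronate libraries and 349, 373 and 401 CPM in the control libraries. The pamidronate libraries lay above both other groups, whose ranges overlapped. Tcirg1 rose with pamidronate, with a log2 change of 0.46 ± 0.11 (SE, adjusted p = 0.00179), and was lower with GGOH than without, at -0.59 ± 0.11 (SE, adjusted p = 0.000449). With GGOH against control it was -0.14 ± 0.11 (SE, adjusted p = 0.309), not called; without pamidronate + GGOH replicate 3 it was -0.27 with an adjusted p of 0.0284, and it was positive under upper-quartile factors, library totals alone and the stricter filter. Atp6v0a1 (chromosome 11, 101009452 to 101063719, plus strand), a widely expressed isoform best known from synaptic vesicles, had 45.5, 49.8 and 51.6 CPM in the pamidronate + GGOH libraries, 26.0, 29.0 and 28.2 CPM in the pamidronate libraries and 40.8, 44.0 and 46.2 CPM in the control libraries. Here the pamidronate libraries were the lowest and the other groups overlapped. Its log2 fold change was -0.65 ± 0.09 (SE, adjusted p = 2.01e-05) for pamidronate over control and 0.82 ± 0.09 (SE, adjusted p = 7.67e-06) for pamidronate + GGOH over pamidronate. With GGOH against control it was 0.17 ± 0.09 (SE, adjusted p = 0.138), not called. It was called higher there under upper-quartile factors, library totals alone and the stricter filter. Atp6v0a2, a Golgi and endosome isoform, averaged 63.7 CPM with pamidronate + GGOH, 65.6 CPM with pamidronate and 61.0 CPM in controls. It was called in no comparison in the fit reported here. Under upper-quartile factors it was called higher than control in both drug groups. The stricter filter did so for pamidronate, and library totals alone for pamidronate + GGOH. Atp6v0a4, the kidney isoform, had 9 counts over the pamidronate + GGOH libraries, 3 over the pamidronate libraries and 0 over the controls, and was not tested. Of its exon bases, 5.21% are shared with D630045J12Rik on the same strand, which had 206 counts in all against 12 for Atp6v0a4.

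The remaining V0 genes encode the proteolipid ring and the small e subunits. Atp6v0c (chromosome 17, 24163866 to 24169702, minus strand), the main ring subunit, had 50.3, 49.5 and 47.2 CPM in the pamidronate + GGOH libraries, 55.0, 59.6 and 62.7 CPM in the pamidronate libraries and 33.6, 35.5 and 36.4 CPM in the control libraries. The groups did not overlap, with pamidronate highest and control lowest. It rose with pamidronate, with a log2 change of 0.75 ± 0.09 (SE, adjusted p = 2.38e-06), and stayed higher than control with GGOH, at 0.48 ± 0.09 (SE, adjusted p = 0.000393). The difference with GGOH against pamidronate, -0.27 ± 0.08 (SE, adjusted p = 0.0162), was lost under 8 of 19 alternatives, among them leaving out control replicate 2, pamidronate replicate 3 or any pamidronate + GGOH library. Of its exon bases, 27.4% are shared with the predicted gene Gm43796 on the same strand, which had 70 counts in all against 7232 for Atp6v0c. Atp6v0b, another ring subunit gene, averaged 101 CPM with pamidronate + GGOH, 108 CPM with pamidronate and 107 CPM in controls. It was called in no comparison in the fit reported here, but was called higher with pamidronate than in controls under upper-quartile factors and the stricter filter.

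Atp6v0e (chromosome 17, 26676396 to 26699644, plus strand) and Atp6v0e2 (chromosome 6, 48537615 to 48541801, plus strand) encode the e subunits, small membrane proteins of the V0 sector. Atp6v0e had 192, 189 and 163 CPM in the pamidronate + GGOH libraries, 246, 286 and 231 CPM in the pamidronate libraries and 133, 147 and 152 CPM in the control libraries. Pamidronate was highest and control lowest, with no overlap. Its log2 fold change was 0.82 ± 0.10 (SE, adjusted p = 4.42e-06) for pamidronate over control and -0.49 ± 0.10 (SE, adjusted p = 0.00101) for pamidronate + GGOH over pamidronate. With GGOH against control it was 0.33 ± 0.10 (SE, adjusted p = 0.0121), and the call was lost without pamidronate + GGOH replicate 1 or 2. Atp6v0e2 had 24.3, 23.9 and 23.4 CPM in the pamidronate + GGOH libraries, 25.7, 23.2 and 20.2 CPM in the pamidronate libraries and 37.3, 32.2 and 33.0 CPM in the control libraries. Both drug groups lay under the controls and overlapped each other. Atp6v0e2 was lower than control with pamidronate, at -0.57 ± 0.11 (SE, adjusted p = 0.000277), and with pamidronate + GGOH, at -0.52 ± 0.11 (SE, adjusted p = 0.00114).

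**Figure D2:**
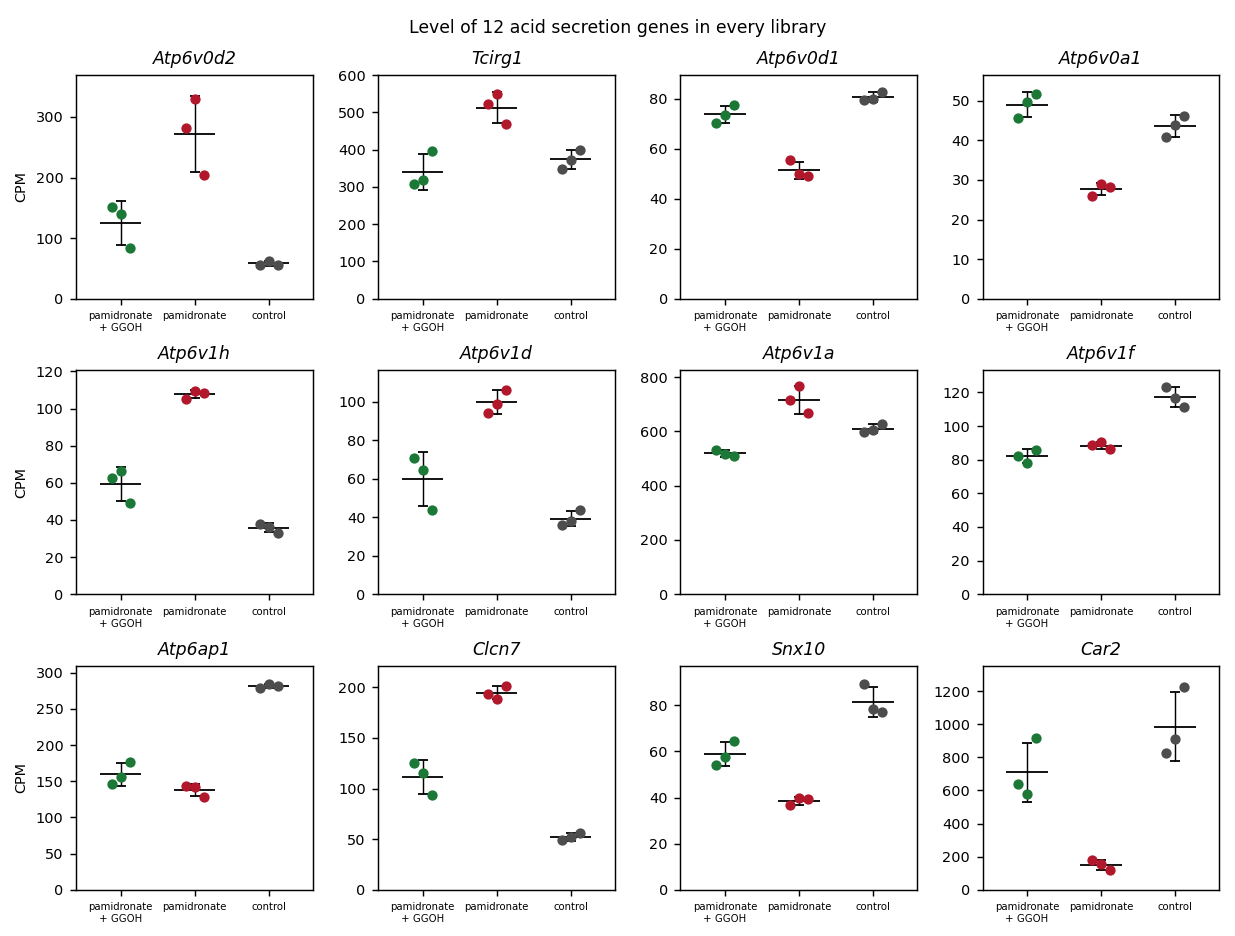
Level in CPM (y axis, from 0) of 12 of the genes in each library, with pamidronate + GGOH, pamidronate and control from left to right; dots are libraries, horizontal lines the means and bars the SD (n = 3). Atp6v0d2, Atp6v1h, Atp6v1d and Clcn7 are highest with pamidronate and lowest in controls, and Car2, Snx10, Atp6v0a1 and Atp6v0d1 are lowest with pamidronate.

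Among the V1 genes, the central stalk, which turns within the ATP-splitting head, held a gene that rose and a gene that fell with pamidronate. Atp6v1d (chromosome 12, 78842989 to 78861638, minus strand) had 70.9, 64.5 and 43.9 CPM in the pamidronate + GGOH libraries, 94.2, 98.7 and 106 CPM in the pamidronate libraries and 36.2, 37.8 and 43.8 CPM in the control libraries. Pamidronate lay above both other groups, and pamidronate + GGOH replicate 3 lay at the level of the highest control. Atp6v1d rose with pamidronate, with a log2 change of 1.35 ± 0.15 (SE, adjusted p = 4.4e-06). With GGOH it was lower than with pamidronate, at -0.74 ± 0.15 (SE, adjusted p = 0.00113), and higher than in controls, at 0.61 ± 0.15 (SE, adjusted p = 0.00446). Without pamidronate + GGOH replicate 3 these were -0.52 and 0.77, both called. The other stalk gene, Atp6v1f, moved the other way: it averaged 82.0 CPM with pamidronate + GGOH, 88.4 CPM with pamidronate and 117 CPM in controls. It was lower than control with pamidronate, at -0.41 ± 0.08 (SE, adjusted p = 0.000316), and with pamidronate + GGOH, at -0.52 ± 0.08 (SE, adjusted p = 0.000108), with no overlap in either comparison.

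The V1 sector also holds the catalytic A, the B and the regulatory H subunits. Atp6v1h (chromosome 1, 5070018 to 5162529, plus strand), whose product in yeast keeps the free V1 sector from splitting ATP, had 62.7, 66.5 and 49.2 CPM in the pamidronate + GGOH libraries, 105, 109.7 and 108 CPM in the pamidronate libraries and 37.9, 36.4 and 33.1 CPM in the control libraries. The 3 groups did not overlap, with pamidronate highest and control lowest. The log2 fold change was 1.59 ± 0.11 (SE, adjusted p = 1.77e-08) for pamidronate over control, -0.86 ± 0.11 (SE, adjusted p = 1.43e-05) for pamidronate + GGOH over pamidronate and 0.73 ± 0.11 (SE, adjusted p = 8.25e-05) for pamidronate + GGOH over control. Atp6v1a, the catalytic A subunit, averaged 518 CPM with pamidronate + GGOH, 715 CPM with pamidronate and 610.1 CPM in controls. It was lower with GGOH than with pamidronate, at -0.46 ± 0.09 (SE, adjusted p = 0.000577). Its smaller differences from control, 0.23 ± 0.09 (SE, adjusted p = 0.0309) for pamidronate and -0.23 ± 0.09 (SE, adjusted p = 0.037) for pamidronate + GGOH, passed the test but were lost under 12 and 11 of 19 alternatives. The call of pamidronate over control was lost on leaving out any one library but pamidronate replicate 3, and that of pamidronate + GGOH on leaving out control replicates 2 or 3, pamidronate replicate 1, or pamidronate + GGOH replicates 1 or 2. Atp6v1b2 (chromosome 8, 69088646 to 69113711, plus strand), the B subunit isoform of osteoclasts and of most cells, had 273, 279 and 269.7 CPM in the pamidronate + GGOH libraries, 299, 319 and 279 CPM in the pamidronate libraries and 243, 289 and 297 CPM in the control libraries. The control libraries overlapped both drug groups, with the pamidronate libraries at 299 and 319 CPM above every control. Atp6v1b2 was called in no comparison in the fit reported here, but was called higher with pamidronate than in controls under upper-quartile factors and the stricter filter. Atp6v1b1, the kidney and inner ear isoform, had 29 counts over the pamidronate + GGOH libraries, 21 over the pamidronate libraries and 20 over the controls, and was not tested.

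The C, E and G subunits form the outer stalks and control the joining of V1 to V0. Atp6v1c1 (chromosome 15, 38661904 to 38692443, plus strand), whose knock-down in mouse cells impairs osteoclast acidification, had 106, 101 and 81.1 CPM in the pamidronate + GGOH libraries, 105, 114 and 121 CPM in the pamidronate libraries and 73.2, 88.5 and 86.8 CPM in the control libraries. Pamidronate lay above control without overlap, and pamidronate + GGOH spanned both. It rose with pamidronate, with a log2 change of 0.45 ± 0.11 (SE, adjusted p = 0.00204), and was called in neither comparison with GGOH, at -0.24 ± 0.11 (SE, adjusted p = 0.0866) against pamidronate and 0.21 ± 0.11 (SE, adjusted p = 0.114) against control. The last of these was called without pamidronate + GGOH replicate 3, and under upper-quartile factors, library totals alone and the stricter filter. Atp6v1g2 (chromosome 17, 35233660 to 35238767, plus strand), a G isoform known from brain, had 11.3, 10.2 and 7.73 CPM in the pamidronate + GGOH libraries, 13.9, 11.6 and 15.1 CPM in the pamidronate libraries and 5.37, 4.98 and 5.32 CPM in the control libraries. Both drug groups lay above control. The log2 fold change was 1.37 ± 0.17 (SE, adjusted p = 4.68e-06) for pamidronate over control and 0.90 ± 0.17 (SE, adjusted p = 0.000573) for pamidronate + GGOH over control. The difference with GGOH against pamidronate, -0.47 ± 0.16 (SE, adjusted p = 0.0241), was lost under 8 of 19 alternatives, among them leaving out control replicate 2, pamidronate replicates 1 or 3, or pamidronate + GGOH replicates 2 or 3. Of its exon bases, 5.74% overlap Nfkbil1 on the opposite strand, which had 1294 counts in all against 1431 for Atp6v1g2, and no source used here says whether strand was used in counting.

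Atp6v1g1, the widely expressed G isoform, averaged 40.9 CPM with pamidronate + GGOH, 46.3 CPM with pamidronate and 48.6 CPM in controls. It was called lower with GGOH than in controls, at -0.25 ± 0.08 (SE, adjusted p = 0.018), a call lost under upper-quartile factors, library totals alone, the stricter filter, the 2 groups alone and a threshold of 0.01. Atp6v1e1, the stator E subunit, averaged 100.02 CPM with pamidronate + GGOH, 104 CPM with pamidronate and 97.6 CPM in controls. It was called in no comparison in the fit reported here. Under upper-quartile factors it was called higher than control in both drug groups. The stricter filter did so for pamidronate, and library totals alone for pamidronate + GGOH. Atp6v1c2, a C isoform of lung and kidney, was near the limit of detection, with 14 counts over the pamidronate + GGOH libraries, 32 over the pamidronate libraries and 3 over the controls. Its ratio to control was 11.3 for pamidronate, with a 95% counting interval of 3.53 to 57.6, and 4.53 for pamidronate + GGOH, with an interval of 1.26 to 24.6. It reached the limit of the filter only through the pamidronate libraries, where it was high, so its calls against control are not read as a result. A stretch of 2.42% of its exon bases lies opposite Pdia6, which had 15349 counts in all against 49 for Atp6v1c2.

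The accessory subunits help to assemble the pump and guide it to its membrane. Atp6ap1 (chromosome X, 74297097 to 74304721, plus strand), known as Ac45, had 146, 156 and 176 CPM in the pamidronate + GGOH libraries, 143, 142 and 128 CPM in the pamidronate libraries and 278, 284 and 281 CPM in the control libraries. The controls lay far above both drug groups. Atp6ap1 was lower than control with pamidronate, at -1.03 ± 0.09 (SE, adjusted p = 1.47e-07), and with pamidronate + GGOH, at -0.82 ± 0.09 (SE, adjusted p = 8.08e-06). With GGOH against pamidronate it was 0.21 ± 0.09 (SE, adjusted p = 0.0621), not called here and called under 9 of 19 alternatives, with no overlap between the libraries. Atp6ap2 (chromosome X, 12587801 to 12617049, plus strand), also known as the prorenin receptor, had 59.7, 67.3 and 70.9 CPM in the pamidronate + GGOH libraries, 55.8, 50.9 and 48.7 CPM in the pamidronate libraries and 94.8, 106 and 108 CPM in the control libraries. The 3 groups did not overlap, with pamidronate lowest and control highest. Its log2 fold change was -0.99 ± 0.09 (SE, adjusted p = 3.45e-07) for pamidronate over control, 0.35 ± 0.09 (SE, adjusted p = 0.00668) for pamidronate + GGOH over pamidronate and -0.64 ± 0.09 (SE, adjusted p = 7.05e-05) for pamidronate + GGOH over control.

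Chloride entry balances the charge of the pumped protons. Clcn7 (chromosome 17, 25133391 to 25162104, plus strand) encodes the chloride-proton exchanger of lysosomes and the ruffled border, and its loss causes osteopetrosis. It had 126, 116 and 93.2 CPM in the pamidronate + GGOH libraries, 194, 189 and 201 CPM in the pamidronate libraries and 48.8, 52.3 and 56.5 CPM in the control libraries. The 3 groups did not overlap, and pamidronate was highest. The log2 fold change was 1.89 ± 0.11 (SE, adjusted p = 4.58e-09) for pamidronate over control, -0.80 ± 0.10 (SE, adjusted p = 2.21e-05) for pamidronate + GGOH over pamidronate and 1.09 ± 0.11 (SE, adjusted p = 3.68e-06) for pamidronate + GGOH over control. Ostm1 (chromosome 10, 42583822 to 42702459, plus strand), which encodes the partner protein that stabilises this exchanger, had 35.6, 40.6 and 38.6 CPM in the pamidronate + GGOH libraries, 41.7, 43.8 and 40.6 CPM in the pamidronate libraries and 48.8, 47.1 and 48.8 CPM in the control libraries. All drug-treated libraries lay under the controls, so the gene of the partner did not follow that of the exchanger. With GGOH it was lower than control at -0.33 ± 0.09 (SE, adjusted p = 0.00468), a call lost under upper-quartile factors, library totals alone and the stricter filter. With pamidronate it was -0.20 ± 0.09 (SE, adjusted p = 0.0495), a call lost under 9 of 19 alternatives, among them leaving out control replicate 1 or any pamidronate library.

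The related endosomal exchanger genes had smaller differences than Clcn7 in these comparisons. Clcn5 averaged 60.8 CPM with pamidronate + GGOH, 42.9 CPM with pamidronate and 55.9 CPM in controls. It was lower with pamidronate than in controls, at -0.38 ± 0.10 (SE, adjusted p = 0.00267), a call lost under upper-quartile factors, and higher with GGOH than with pamidronate, at 0.50 ± 0.10 (SE, adjusted p = 0.000617). With GGOH against control it was 0.12 ± 0.10 (SE, adjusted p = 0.306), not called. It was called higher there under upper-quartile factors, library totals alone and the stricter filter. Clcn3 averaged 147 CPM with pamidronate + GGOH, 139 CPM with pamidronate and 124 CPM in controls. In the fit reported here it was called with GGOH against control, at 0.24 ± 0.09 (SE, adjusted p = 0.0379), and that call was lost under 11 of 19 alternatives, among them leaving out control replicates 2 or 3, any pamidronate library, or pamidronate + GGOH replicates 1 or 2. It was not called in the other comparisons, but was higher with pamidronate than in controls under upper-quartile factors, library totals alone and the stricter filter, and higher with GGOH than with pamidronate under library totals alone and without pamidronate + GGOH replicate 3.

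Carbonic anhydrase and bicarbonate exchange feed the pump with protons. Car2 (chromosome 3, 14886273 to 14900770, plus strand) encodes the cytosolic enzyme that makes protons and bicarbonate from carbon dioxide, and its loss in human causes osteopetrosis. It had 637, 577 and 914 CPM in the pamidronate + GGOH libraries, 180.3, 155 and 118 CPM in the pamidronate libraries and 827, 909.9 and 1223 CPM in the control libraries. Every pamidronate library lay far below every other library, while pamidronate + GGOH and control overlapped through pamidronate + GGOH replicate 3. Car2 fell with pamidronate, with a log2 change of -2.71 ± 0.23 (SE, adjusted p = 3.29e-06), and was higher with GGOH than with pamidronate at 2.23 ± 0.23 (SE, adjusted p = 3.4e-05). With GGOH against control the value was -0.48 ± 0.22 (SE, adjusted p = 0.0916), not called. It was called without pamidronate + GGOH replicate 3, at -0.72 with an adjusted p of 0.0151, and with DESeq2. Slc4a2 (chromosome 5, 24423837 to 24440950, plus strand), which encodes the exchanger that removes the bicarbonate in return for chloride, had 17.7, 16.9 and 19.9 CPM in the pamidronate + GGOH libraries, 22.1, 22.1 and 21.7 CPM in the pamidronate libraries and 13.6, 19.6 and 24.0 CPM in the control libraries. The control libraries spread more widely than either drug group. Slc4a2 was called in no comparison in the fit reported here, but was called higher with pamidronate than in controls under upper-quartile factors. Of its exon bases, 13.7% overlap Fastk on the opposite strand, which had 7071 counts in all against 2994 for Slc4a2.

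Vesicle traffic brings the pump and the exchanger to the ruffled border. Snx10 (chromosome 6, 51523901 to 51590679, plus strand), whose mutation causes osteopetrosis, had 54.3, 57.6 and 64.7 CPM in the pamidronate + GGOH libraries, 36.7, 39.7 and 39.5 CPM in the pamidronate libraries and 89.1, 78.2 and 77.0 CPM in the control libraries. The groups did not overlap, with pamidronate lowest and control highest. The log2 fold change was -1.08 ± 0.09 (SE, adjusted p = 1.67e-07) for pamidronate over control, 0.61 ± 0.09 (SE, adjusted p = 0.000107) for pamidronate + GGOH over pamidronate and -0.47 ± 0.09 (SE, adjusted p = 0.000768) for pamidronate + GGOH over control. Plekhm1 (chromosome 11, 103364275 to 103412687, minus strand), an adaptor of late endosomes and lysosomes that is also mutated in osteopetrosis, had 231, 203 and 208 CPM in the pamidronate + GGOH libraries, 289, 282 and 305 CPM in the pamidronate libraries and 211, 231 and 258 CPM in the control libraries. Pamidronate lay above both other groups, which overlapped. Its log2 fold change was 0.32 ± 0.09 (SE, adjusted p = 0.00639) for pamidronate over control, a call lost without control replicate 2, and -0.45 ± 0.09 (SE, adjusted p = 0.00109) for pamidronate + GGOH over pamidronate. With GGOH against control it was -0.13 ± 0.09 (SE, adjusted p = 0.263), not called, and positive under upper-quartile factors, library totals alone and the stricter filter.

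Levels of different genes can be compared only per length, as in the deposited TPM values, which divide each count by gene length. In controls, Car2 had the highest level per length of the 31 genes, at 928 TPM, followed by Atp6v1f at 249.6, Atp6v1a at 229, Atp6ap1 at 211 and Tcirg1 at 190.1 TPM. With pamidronate, Atp6v1a at 294, Tcirg1 at 285 and Atp6v0d2 at 249 TPM were the highest, and their ranges over libraries overlapped. Car2 was at 155 TPM in that group and again the highest with pamidronate + GGOH, at 835 TPM. The summed TPM of the 21 V0 and V1 genes was 1961, 2004 and 1877 in the pamidronate + GGOH libraries, 2254, 2274 and 2036 in the pamidronate libraries and 1423, 1600.3 and 1672 in the controls. The groups did not overlap, with pamidronate highest and control lowest. The order of the means was the same without Atp6v0d2, at 1816 TPM with pamidronate + GGOH, 1939 TPM with pamidronate and 1517 TPM in controls. TPM carry no composition factors, and with such factors the order of pamidronate + GGOH and control is not kept. Summed over the 21 genes, CPM with these factors come to about the same level in both groups, with pamidronate still highest. Atp6v1a averaged 518 CPM with pamidronate + GGOH and 610 CPM in controls, and Tcirg1 341 and 374 CPM. In TPM both were higher with pamidronate + GGOH. Between these groups, 7 of the 19 tested V0 and V1 genes were called higher with GGOH and 4 lower. In the fit with these factors, the median log2 fold change of the 19 tested V0 and V1 genes, Atp6v1c2 among them, was 0.23 for pamidronate over control. It was -0.24 for pamidronate + GGOH over pamidronate and 0.06 for pamidronate + GGOH over control. Mitochondrial transcripts took 12.1% of all TPM with pamidronate + GGOH, 7.95% with pamidronate and 20.0% in controls, and a larger share of them lowers every other TPM; their part in the sums was not tested. In counts scaled to library totals alone the sums averaged 2463 with pamidronate + GGOH, 2883 with pamidronate and 2105 in controls. These sums carry no composition factors either, so they do not check the order with such factors.

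**Figure D3:**
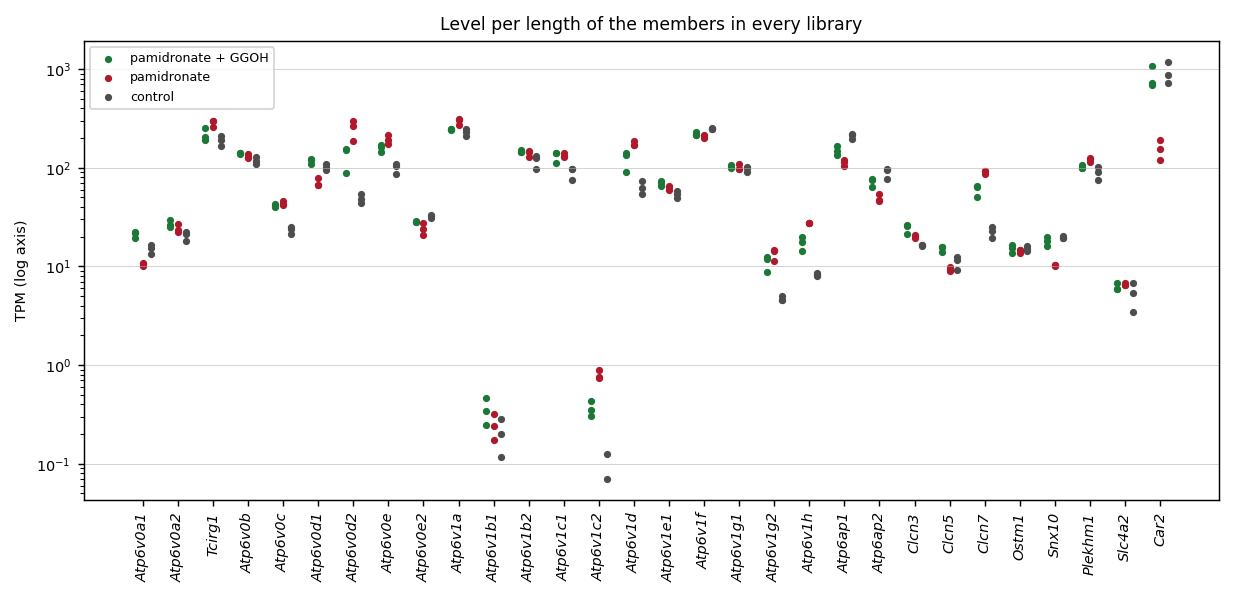
Level per length in TPM (y axis, log scale) of all the genes but Atp6v0a4, in each library, coloured by group with pamidronate + GGOH, pamidronate and control from left to right within each gene; libraries at 0 are not drawn. Atp6v1b1 and Atp6v1c2 lie under 1 TPM in every library, and Car2 lies apart with pamidronate, at a mean of 155 TPM.

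The makeup of the pump transcripts, as the share of 1 isoform in the summed TPM of its family, is free of the scaling between libraries. Atp6v0d2 made up 52.2% ± 9.05 with pamidronate + GGOH, 77.3% ± 4.04 with pamidronate and 32.3% ± 1.86 in controls of the d subunit transcripts (SD, n = 3 for these shares). Clcn7 made up 60.1% ± 1.27 with pamidronate + GGOH, 75.5% ± 0.278 with pamidronate and 44.9% ± 1.86 in controls of the TPM of Clcn3, Clcn5 and Clcn7. For both, the 3 groups did not overlap, with pamidronate highest and control lowest. Tcirg1 was the main a subunit transcript in every library, at 81.6% ± 2.32 with pamidronate + GGOH, 89.1% ± 0.888 with pamidronate and 84.2% ± 0.570 in controls, and its pamidronate libraries lay above both other groups. Atp6v0e2 made up 15.3% ± 0.958 with pamidronate + GGOH, 11.1% ± 1.31 with pamidronate and 24.6% ± 2.77 in controls of the e subunit transcripts, with controls highest. Atp6v1g2 made up 9.70% ± 1.62 with pamidronate + GGOH, 11.6% ± 1.44 with pamidronate and 4.64% ± 0.184 in controls of the G subunit transcripts, with controls lowest and the drug groups overlapping. Atp6v1b1 and Atp6v1c2 stayed under 1% of their families in every library. An exact two-sided permutation test of 3 against 3 libraries cannot give less than p = 0.1, which is 0.131 after Benjamini-Hochberg adjustment over the 21 share comparisons, so none passed 0.05.

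**Figure D4:**
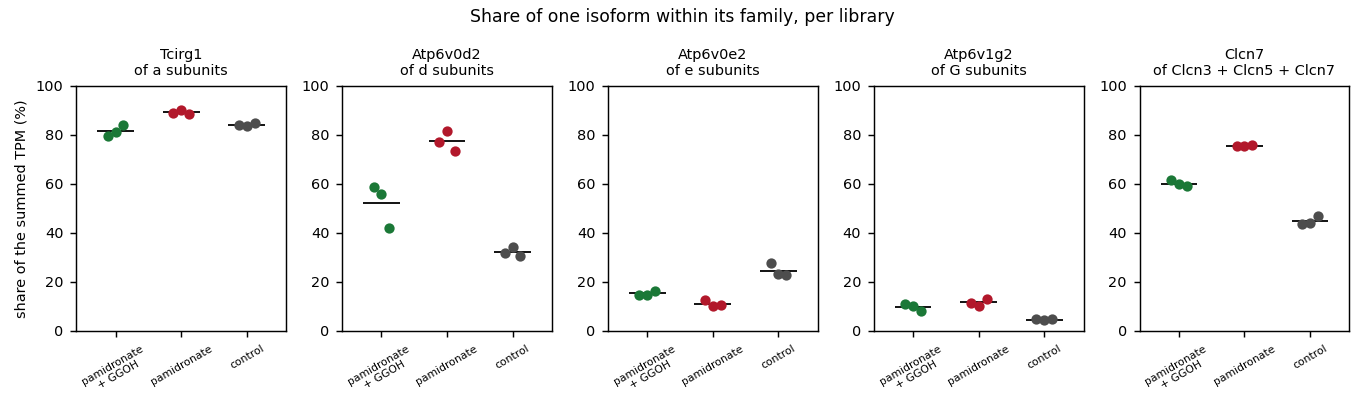
Share in percent (y axis, 0 to 100) of Tcirg1, Atp6v0d2, Atp6v0e2, Atp6v1g2 and Clcn7 in the summed TPM of their families, with pamidronate + GGOH, pamidronate and control from left to right; dots are libraries and lines the means of 3. The Clcn7 share averages 60.1% with pamidronate + GGOH, 75.5% with pamidronate and 44.9% in controls.

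The pump works with a wider set of genes, listed here as 4 groups. Of 12 tested genes of V-ATPase assembly and regulation, 4 were called higher and 7 lower with pamidronate than in controls, which is 33.3% and 58.3%, against 36.2% and 32.9% of all genes, with a median log2 fold change of -0.57 against 0.08 for all genes. Ncoa7, a TLDc-domain protein that binds the pump, was at -2.94 ± 0.15 (SE, adjusted p = 2.99e-09), with 33.1 CPM with pamidronate + GGOH, 6.87 CPM with pamidronate and 52.6 CPM in controls. Rogdi, a subunit of the complex that joins V1 to V0, was at -1.42 ± 0.13 (SE, adjusted p = 2.19e-07), and Vma21, an assembly factor of V0 in the endoplasmic reticulum, at -1.40 ± 0.13 (SE, adjusted p = 3.34e-07). With GGOH against pamidronate 3 were called higher, among them Ncoa7 at 2.27 ± 0.15 (SE, adjusted p = 1.2e-07), and 3 lower, 25% in each direction against 25.2% and 23.6% of all genes, with a median of 0.15 against 0.00 for all genes. With GGOH against control 3 were higher and 7 lower, which is 25% and 58.3% against 26.3% and 26% of all genes, with a median of -0.36 against 0.02. The isoform genes Atp6v1e2 and Atp6v1g3 were at 0 in every library.

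Of 11 tested genes among other carbonic anhydrases and pH carriers, 2 were called higher and 8 lower with pamidronate than in controls, which is 18.2% and 72.7% against 36.2% and 32.9% of all genes, with a median of -0.87 against 0.08. Slc9a9, an endosomal sodium-proton exchanger, averaged 5.27 CPM with pamidronate + GGOH, 0.393 CPM with pamidronate and 29.1 CPM in controls, and was at -6.18 ± 0.53 (SE, adjusted p = 8.02e-06). Car5b, a mitochondrial carbonic anhydrase, was also lower, at -1.82 ± 0.13 (SE, adjusted p = 3.19e-08), while Car6, the secreted form, was higher at 3.01 ± 0.30 (SE, adjusted p = 3.88e-06). With GGOH against pamidronate 6 were called higher and 1 lower, which is 54.5% and 9.09% against 25.2% and 23.6% of all genes, with a median of 0.63 against 0.00. With GGOH against control 2 were higher and 4 lower, which is 18.2% and 36.4% against 26.3% and 26% of all genes, with a median of -0.22 against 0.02.

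Of 13 lysosomal membrane genes found in the table, out of 14 listed, 4 were called higher and 6 lower with pamidronate than in controls, which is 30.8% and 46.2% against 36.2% and 32.9% of all genes, with a median of -0.12 against 0.08. Tpcn1, a cation channel gene of endosomes and lysosomes, was at -1.32 ± 0.11 (SE, adjusted p = 1.42e-07), whereas Mcoln1, the lysosomal calcium channel gene, was at 1.14 ± 0.09 (SE, adjusted p = 4.05e-08) and Tpcn2 at 0.98 ± 0.10 (SE, adjusted p = 7.69e-07). With GGOH against pamidronate 4 were higher and 3 lower, which is 30.8% and 23.1%, with a median of 0.18, and with GGOH against control 5 higher and 4 lower, which is 38.5% and 30.8%, with a median of -0.16, each beside the same shares and medians of all genes as above. All 15 genes of lysosomal nutrient sensing and MiT/TFE factors were tested. With pamidronate against control 6 were higher and 7 lower, which is 40% and 46.7% against 36.2% and 32.9% of all genes, with a median of 0.09. With GGOH against pamidronate 5 were higher and 5 lower, 33.3% in each direction against 25.2% and 23.6% of all genes, with a median of 0.05. Between GGOH and control 4 were higher with GGOH and 5 lower, which is 26.7% and 33.3% against 26.3% and 26% of all genes, with a median of -0.05. Rragd, a Rag GTPase gene that MiT/TFE factors are known to switch on, averaged 1.73 CPM with pamidronate + GGOH, 4.49 CPM with pamidronate and 0.457 CPM in controls, and was at 3.29 ± 0.34 (SE, adjusted p = 7.15e-07). The factor genes Mitf and Tfec were lower with pamidronate than in controls, at -1.98 ± 0.15 (SE, adjusted p = 2.23e-07) and -2.32 ± 0.33 (SE, adjusted p = 1.7e-05), and higher with GGOH than with pamidronate, at 0.94 ± 0.15 (SE, adjusted p = 0.000249) and 2.27 ± 0.33 (SE, adjusted p = 5.65e-05). The other MiT/TFE factor genes differed from these. Tfe3 was lower with pamidronate than in controls, at -1.24 ± 0.11 (SE, adjusted p = 2.65e-07), and not called with GGOH against pamidronate, at 0.28 ± 0.11 (SE, adjusted p = 0.0554). Tfeb was not called with pamidronate against control, at 0.25 ± 0.14 (SE, adjusted p = 0.133), and was lower with GGOH than with pamidronate, at -1.05 ± 0.15 (SE, adjusted p = 5.33e-05).

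MiT/TFE factors bind a short palindrome, CACGTG, which is found in the promoters of many lysosomal genes and is also bound by other factors of the basic helix-loop-helix class. The promoter windows of these genes were therefore searched for it. RefSeq windows on GRCm38.p6, from 250 bases before to 50 bases after the start site, were given for 24 of the 31 genes; Atp6v0a2, Atp6v0d2, Atp6v1b2, Atp6v1c1, Atp6v1g1, Atp6v1h and Car2 were not among them. CACGTG occurred in 5 of the 24 genes (20.8%), Atp6v0b, Atp6v0d1, Atp6v0e, Atp6v1a and Clcn7, against 8.09% of 27025 genes with a window. Some genes have several windows, and a gene was counted if any window held the string. By window, CACGTG occurred in 5 of 35 windows of the 24 genes, against 7.15% of all 32851 windows. The comparison genes were not limited to those that passed the filter on low counts. The longer string TCACGTG, searched on both strands, occurred in the same 5 genes, against 4.29% of all genes, and TCACGTGA in 4 of them (16.7%), all but Atp6v0b, against 1.12% of all genes. Each longer string contains the shorter ones. The stretches below show where the palindrome, in capitals, lies in each promoter, written 5′ to 3′ on the gene's strand.
Atp6v0b, chr4:117887322-117887385, minus strand: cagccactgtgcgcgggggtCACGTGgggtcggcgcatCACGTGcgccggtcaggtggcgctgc
Atp6v0d1, chr8:105566042-105566087, minus strand: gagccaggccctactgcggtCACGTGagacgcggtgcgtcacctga
Atp6v0e, chr17:26676379-26676424, plus strand: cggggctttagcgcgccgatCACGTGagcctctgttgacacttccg
Atp6v1a, chr16:44139365-44139410, minus strand: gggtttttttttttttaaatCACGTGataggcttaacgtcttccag
Clcn7, chr17:25133356-25133423, plus strand: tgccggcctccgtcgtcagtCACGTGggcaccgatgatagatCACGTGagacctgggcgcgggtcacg

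Atp6v0b and Clcn7 hold the palindrome at 2 places each. Counted from the start site as base 1, its first base lies at -36 and -18 in Atp6v0b, -3 in Atp6v0d1, 4 in Atp6v0e, -131 in Atp6v1a and -15 and 8 in Clcn7. With pamidronate against control these 5 genes did not share a direction: Clcn7, Atp6v0e and Atp6v1a were called higher, Atp6v0d1 lower, and Atp6v0b was not called. The largest log2 fold change among them was 1.89 for Clcn7 and the smallest -0.65 for Atp6v0d1. A match of these letters is a description of the sequence and not a measured binding site.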

How the data were processed

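RNA was sequenced from 9 RAW 264.7 samples, grouped by the treatment in their labels, 3 libraries each. The deposited table holds raw counts of 49315 genes. TPM values, deposited by the authors, are counts over exon length scaled to 1 sum per library, and were used to compare levels between genes and for shares within a family. Per the submitters' processing notes, reads were trimmed with Trimmomatic 0.36, the build was GRCm38, and DESeq was used in a role not given; aligner, counting tool and strand setting: not given in the sources used here. Of the genes, 174 had no symbol, and 0 columns of samples were left unused.

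Low counts were filtered with filterByExpr (default settings) and TMM gave the scaling. The group means were fitted over the 9 libraries together (edgeR 4.0.16 quasi-likelihood, robust, R 4.3.3, limma 3.58.1), checked on simulated data, with Benjamini-Hochberg adjustment over 15963 genes, called at an adjusted p under 0.05. The SE was taken as the size of the log2 fold change divided by the root of F. Within groups, every 2 libraries differed beyond counting noise (chi-square divided by its degrees of freedom, 4.00 to 37.2). Counting intervals are at the 95% level and cover counting error only. Exons and overlaps come from GENCODE M21 on GRCm38.

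The members, supporting lists and tests were chosen with earlier results of these data known. Every library's value is given for 11 genes with a known osteoclast or acid secretion role and, in each role group and comparison, for the 3 called genes with the largest change and at least 1 CPM in the higher group; Atp6v0d1 was added after its values were seen. From each supporting list the 3 called genes with the largest change with pamidronate against control are named, with Tfe3 and Tfeb added after their values were seen, and all 10 osteoclast markers. The alternatives were RLE, upper-quartile and library-total scaling, no filter and a filter of 5 CPM in 3 libraries, DESeq2 1.42.0, limma-voom, a replicate block, fits of only the 2 groups compared, a threshold of 0.01 and leaving out each library. A comparison of protein sequences was not run.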

Additional observations from a re-analysis of the deposited data

How the results depend on the processing

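Each of the 6 counts of genes called and each fold change was refitted under 19 alternatives, but for Atp6v1c2, which did not pass the filter in some of them and was refitted under 17 or 18. The counts called higher and lower ran from 10 to 18 and 8 to 10 for pamidronate over control, 6 to 8 and 8 to 11 for pamidronate + GGOH over pamidronate, and 6 to 14 and 5 to 10 for pamidronate + GGOH over control, where upper-quartile factors and library totals alone each gave 14 higher and 5 lower and the stricter filter 5 lower. No fold change of a called gene changed sign in the refits that gave it a value. All sign changes were in genes not called, and their cause was not tested beyond the shift of all genes that the scaling itself makes. For pamidronate over control, Atp6v0b was -0.024 with RLE factors, -0.024 with DESeq2, -0.077 with no filter and -0.017 with the 2 groups alone, and Atp6v1g1 was 0.13 with upper-quartile factors and 0.081 with the stricter filter. For pamidronate + GGOH over pamidronate, library totals alone gave Atp6v0a2 0.13, Atp6v0b 0.078, Atp6v1b2 0.044, Atp6v1e1 0.12, Atp6v1f 0.061 and Ostm1 0.037, and no filter gave Atp6v0a2 0.0042. For pamidronate + GGOH over control, upper-quartile factors gave Tcirg1 0.064, Atp6v0b 0.12, Atp6v0d1 0.070, Atp6v1b2 0.19, Plekhm1 0.076 and Slc4a2 0.14; library totals alone gave 0.093, 0.15, 0.099, 0.21, 0.10 and 0.16, and the stricter filter 0.014, 0.067, 0.019, 0.14, 0.024 and 0.083 for the same genes. No filter gave Atp6v1e1 -0.0035 and the 2 groups alone Atp6v1b2 0.023 there.

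Leaving out 1 library at a time, the log2 fold change crossed 0 for Atp6v0b, from -0.068 to 0.028, for pamidronate over control; for Atp6v0a2, from -0.092 to 0.057, Atp6v0e2, from -0.038 to 0.14, and Atp6v1e1, from -0.098 to 0.038, for pamidronate + GGOH over pamidronate; and for Atp6v1b2, from -0.11 to 0.024, Slc4a2, from -0.27 to 0.11, and Atp6v0a2, from -0.034 to 0.10, for pamidronate + GGOH over control.

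With CPM in place of TPM, which leaves gene length in, the Tcirg1 share was 74.9% with pamidronate + GGOH, 84.6% with pamidronate and 78.1% in controls, and the Atp6v0d2 share 62.1%, 83.7% and 41.9% in those groups. The Atp6v0e2 share was 11.7%, 8.33% and 19.3%, that of Atp6v1g2 19.2%, 22.6% and 9.71% and that of Clcn7 34.8%, 51.6% and 22.6%, each for pamidronate + GGOH, pamidronate and control. The order of the 3 group means was the same as in TPM for each. The summed subunits, in counts scaled to library totals alone without composition factors, were 2463, 2883 and 2105 in these groups.

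The replicate numbers did not pair the samples: deviations of same-numbered libraries correlated at -0.22 to 0.20, with 2 of 9 pairs over 0.1. With the replicate number as a block, 12 genes were called higher and 9 lower for pamidronate over control, 6 and 10 for pamidronate + GGOH over pamidronate, and 8 and 7 for pamidronate + GGOH over control. Atp6v0a4, Atp6v1b1 and Atp6v1c2 had group totals of 0 to 32 counts, which gives their ratios wide counting intervals.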
